A study of Rattus norvegicus with 30 samples.

Results

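Transcripts of 49 rat genes that build or bind the cytoskeletal filaments were examined in cultured hepatocytes given acetaminophen. The genes were listed by name in 8 classes: 4 actins, 7 proteins that bind along actin filaments, 4 chains of non-muscle myosin II, 9 factors that bind actin monomers or filament ends, 7 crosslinkers and focal adhesion proteins, 4 membrane linkers and surface proteins, 5 intermediate filament proteins, and 9 tubulins and tubulin-binding proteins. Each gene was read from its brightest probe set. Of the 49, 42 had a probe set that named no other gene, out of 14217 genes so named on the array, and 33 were among the 8531 brightest genes that were tested. Another 9 (Tpm2, Tagln, Myl9, Cotl1, Capg, Pdlim7, Cd44, Krt19 and Tubb2b) were too dim for the test. The remaining 7 (Actb, Myl6, Cfl1, Tmsb10, Tuba1a, Tuba1b and Tuba1c) were represented only by probe sets that also detect related genes.

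The cells were purchased frozen hepatocytes of male Sprague Dawley rats, plated after thawing on collagen-coated wells under a layer of Matrigel, a basement membrane extract. From day 3 of culture, wells received 500 µM or 5000 µM acetaminophen or 1% DMSO, the vehicle, and were harvested after 24 or 48 h. All doses were prepared in DMSO, per the treatment protocol. Each of the 6 groups had 5 wells on 5 Affymetrix arrays, 30 arrays in all, and the protocol calls them independent cultures but does not say that they came from different animals, so p-values reflect variation between wells. The sources used here give no ages and no number of donor rats. Acetaminophen is an analgesic that hepatocytes mostly conjugate; a small part is oxidised to a quinone imine, which reacts with glutathione and protein.

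Actin filaments form the cortex beneath the hepatocyte membrane and the belt around the bile canaliculus. Tropomyosins, calponins and transgelins lie along them, non-muscle myosin II contracts them, and talin, vinculin and zyxin tie them to integrins at focal adhesions. Hepatocytes in the liver carry keratins 8 and 18 as their intermediate filaments, whereas vimentin is a mesenchymal intermediate filament protein. Isolated hepatocytes that spread on a flat substrate are known to gain actin, tubulin and vimentin transcripts as they lose liver-specific ones, which is why such genes are read as a sign of dedifferentiation in culture. Tubulin transcript levels are also known to be lowered when free tubulin dimers accumulate, a regulation of mRNA stability.

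Values are MAS5 signals on a linear scale, in arbitrary units, and a difference is a log2 difference of group means from one limma fit over all 30 arrays, with its standard error and n = 5 arrays a group. Calls are at an adjusted p (Benjamini-Hochberg, over the 8531 genes) under 0.05. "Rose" and "fell" refer to called genes. Array values are given in rising order. In bulk RNA, fewer cells of a type and less RNA per cell cannot be told apart.

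The array itself checks RNA quality through an actin. Control probe sets read beta-actin, the main cytoplasmic actin, near the 3′ end, the middle and the 5′ end of its mRNA, and the log2 ratio of 3′ to 5′ signal rises when transcripts or labelled copies are shorter. At 48 h the ratio was 1.860 ± 0.119 (SD, n = 5) at 500 µM, against 1.243 ± 0.106 in vehicle, and no array of one group reached the other (exact permutation test, two-sided, p = 0.00794, the smallest that 252 splits allow; adjusted p = 0.0185 over 14 tests). The 5′ probe set read 11993 to 15717 units in the 500 µM wells and 21186 to 27269 units in vehicle wells, whereas the 3′ probe set read 47151 to 55291 and 52231 to 58825 units. In vehicle wells the ratio was 0.53 lower at 48 h than at 24 h, with the same exact p of 0.00794. At 5000 µM it differed from vehicle by -0.41 at 24 h (exact permutation p = 0.0476, adjusted 0.0833) and by -0.03 at 48 h (exact permutation p = 0.579, adjusted 0.579). GAPDH control probe sets gave ratios in the same order, with 0.258 ± 0.070 at 500 µM and 0.105 ± 0.023 in vehicle at 48 h. For tested genes, the comparisons of 500 µM with vehicle at 48 h and of vehicle wells over time are therefore given with and without these ratios as a covariate.

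**Figure D1:**
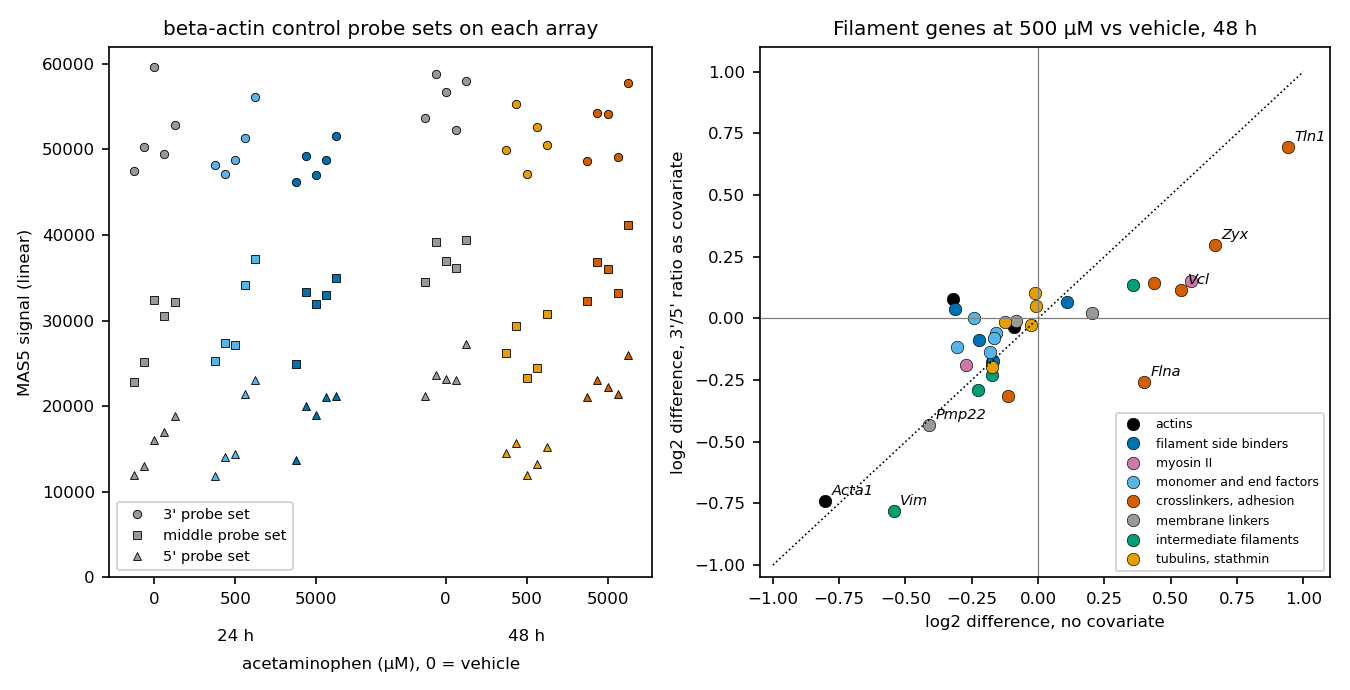
Left, signal of the 3′, middle and 5′ beta-actin control probe sets on each array (linear axis from 0), by dose and time. Right, log2 difference between 500 µM and vehicle at 48 h for 33 filament genes, with the beta-actin 3′/5′ ratio as a covariate (vertical axis) against without it (horizontal axis). The 5′ signal of the 500 µM wells at 48 h lay below every 48 h vehicle well, and Vim and Pmp22 kept their falls under the covariate while talin, zyxin and vinculin moved towards 0. The ratios of these groups did not overlap, so ratio and dose cannot be told apart for any gene shown.

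The hepatocyte label held for the cells as a whole: albumin (Alb) had a geometric mean signal of 51120 units and apolipoprotein B (Apob) one of 50130. Few markers of other liver cells were bright enough to be tested: 1 of 11 for stellate cells and fibroblasts, 3 of 10 for Kupffer cells and leukocytes, 1 of 8 for sinusoidal endothelium and 1 of 6 for cholangiocytes. Collagen III (Col3a1), a stellate cell and fibroblast marker, had a median of 582.5 units, and desmin (Des) had 404.1. Among Kupffer cell markers Cd14 had a median of 16170 and Lyz2 one of 7149, while Clec4f, which defines rat Kupffer cells, had 278.4. The cholangiocyte keratin Krt7 had a median of 10.13 units, and Epcam had 10660.

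Promoters are shown for the actin gene that moved most (Acta1), the cytoplasmic actin that moved least (Actg1), and for vimentin and transgelin 2, which were lower at 5000 µM at both times. They are RefSeq sequences of the GRCr8 assembly, from 250 bases before to 50 after the annotated start, on the gene's strand. Acta1 is at chr19:68784145-68784444 (minus strand), Actg1 at chr10:106120902-106121201 (minus), Vim at chr17:81577011-81577310 (plus) and Tagln2 at chr13:87499158-87499457 (plus). Capitals mark the CArG box, which serum response factor binds, in its exact form only (CC, then only A or T, then GG), and the letters TATAAA on the gene's strand.
Acta1: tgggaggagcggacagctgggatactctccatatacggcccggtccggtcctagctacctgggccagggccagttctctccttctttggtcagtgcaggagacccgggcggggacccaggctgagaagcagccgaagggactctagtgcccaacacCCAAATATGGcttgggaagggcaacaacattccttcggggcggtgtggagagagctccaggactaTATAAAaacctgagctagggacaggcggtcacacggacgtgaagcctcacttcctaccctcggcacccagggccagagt
Actg1: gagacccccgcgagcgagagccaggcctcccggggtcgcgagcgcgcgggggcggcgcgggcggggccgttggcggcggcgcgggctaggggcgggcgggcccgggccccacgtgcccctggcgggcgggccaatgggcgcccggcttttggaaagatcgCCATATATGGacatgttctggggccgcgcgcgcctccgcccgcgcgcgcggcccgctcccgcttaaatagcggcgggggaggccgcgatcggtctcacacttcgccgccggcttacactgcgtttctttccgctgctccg
Vim: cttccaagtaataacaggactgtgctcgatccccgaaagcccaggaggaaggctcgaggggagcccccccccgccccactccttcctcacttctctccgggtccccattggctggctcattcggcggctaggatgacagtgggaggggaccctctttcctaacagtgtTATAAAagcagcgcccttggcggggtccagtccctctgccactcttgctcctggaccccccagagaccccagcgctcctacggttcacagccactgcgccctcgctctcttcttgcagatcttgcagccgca
Tagln2: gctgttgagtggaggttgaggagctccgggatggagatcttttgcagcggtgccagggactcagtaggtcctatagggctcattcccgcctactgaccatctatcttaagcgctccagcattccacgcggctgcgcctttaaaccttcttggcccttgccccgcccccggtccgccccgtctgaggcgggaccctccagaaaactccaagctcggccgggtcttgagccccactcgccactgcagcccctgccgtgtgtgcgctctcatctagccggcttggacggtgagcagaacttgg

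RefSeq windows matched 43 of the 49 genes, some with several starts, for 47 windows in all, and both strands were searched. The exact CArG box (CC, 6 letters A or T, GG) was found in 2 of the 47 windows (4.26%, against 1.64% of 33469 windows in the table), those of Acta1, starting 94 bases before the start site, and Actg1, 90 bases before it. Looser forms were not counted, such as ccctatatgg and ccttgtttgg in the Acta2 window and ccatatacgg in that of Acta1. TATAAA was in 6 of the 47 (12.8%, against 14.2%), among them Acta1 at 29 and Vim at 82 bases before the start. The Sp1-type letters GGGCGG were in 37 (78.7%, against 33.1%) and the TEAD-type letters GGAATG in 11 (23.4%, against 14.2%). These matches describe the windows only. Of the genes with the exact CArG box, Acta1 was called in 4 of the 5 comparisons with vehicle or over time, and Actg1 in 0 of them, also at an unadjusted p under 0.05 in limma.

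In vehicle wells, 8 of the 33 tested genes were higher at 48 h than at 24 h and 2 were lower, where 32.5% of all 8531 genes were called in either direction (13.4% higher, 19% lower). The median difference was 0.11 over the 33 and -0.01 over all genes. Acta1, skeletal muscle alpha-actin, had the largest one. It read 3776, 4863, 4936, 5014 and 5864 units at 48 h and 975, 1176, 1280, 1532 and 1863 units at 24 h, and the groups did not overlap. Its difference was 1.86 ± 0.18 (adjusted p = 5.63e-09, limma), and 1.81 with the beta-actin ratio as a covariate. Tagln2, an actin-binding transgelin, read 7270, 8649, 9078, 9832 and 10067 units at 48 h and 5274, 6549, 6812, 6945 and 7035 at 24 h, a difference of 0.46 ± 0.11 (adjusted p = 0.00135). Arpc1b, a subunit of the Arp2/3 complex that nucleates branched actin, was at 5721, 5875, 5993, 6271 and 7439 units at 48 h and at 4155, 4466, 4746, 4917 and 4971 at 24 h (0.43 ± 0.08). Both of these were apart in all 5 arrays.

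Vimentin (Vim) read 7451, 8688, 8764, 9927 and 10423 units at 48 h and 6441, 6697, 6818, 7949 and 8536 at 24 h in vehicle wells. The groups overlapped, and the rise of 0.31 ± 0.12 (adjusted p = 0.0387) was lost when any of 7 single arrays was left out (adjusted p up to 0.113). The monomer-binding proteins thymosin beta 4 (Tmsb4x, 0.33 ± 0.07) and profilin 1 (Pfn1, 0.16 ± 0.06), tropomyosin 1 (Tpm1, 0.16 ± 0.05) and stathmin (Stmn1, 0.31 ± 0.11) were the other genes that rose. The calls of Stmn1 and Pfn1 were lost under 12 and 10 of 20 alternatives (adjusted p up to 0.255 and 0.574). The myosin heavy chain Myh9 (-0.48 ± 0.11) and alpha-actinin 4 (Actn4, -0.34 ± 0.10) fell. Keratins 8 and 18 (0.11 ± 0.07 and 0.16 ± 0.07) and the 4 tested beta-tubulins (0.00 to 0.18) did not pass the test. With the beta-actin ratio as a covariate 3 genes were called, all higher at 48 h: Acta1, Vim (0.52) and alpha-actinin 1 (Actn1, 0.35). With the GAPDH ratio the 5 called were Acta1, Tpm1, Arpc1b, Actn1 and Vim. Both ratios were apart between vehicle wells at 48 h and 24 h. Calls under a covariate therefore do not separate time from ratio for any gene. Over the same time 9 of 27 hepatocyte identity genes (33.3%, against 19% of all genes) fell and 0 rose (limma; 9 and 0 at an unadjusted p under 0.05), among them Cyp2c11 (-1.03 ± 0.12), a male-specific cytochrome P450, and 8 fell with the beta-actin covariate.

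**Figure D2:**
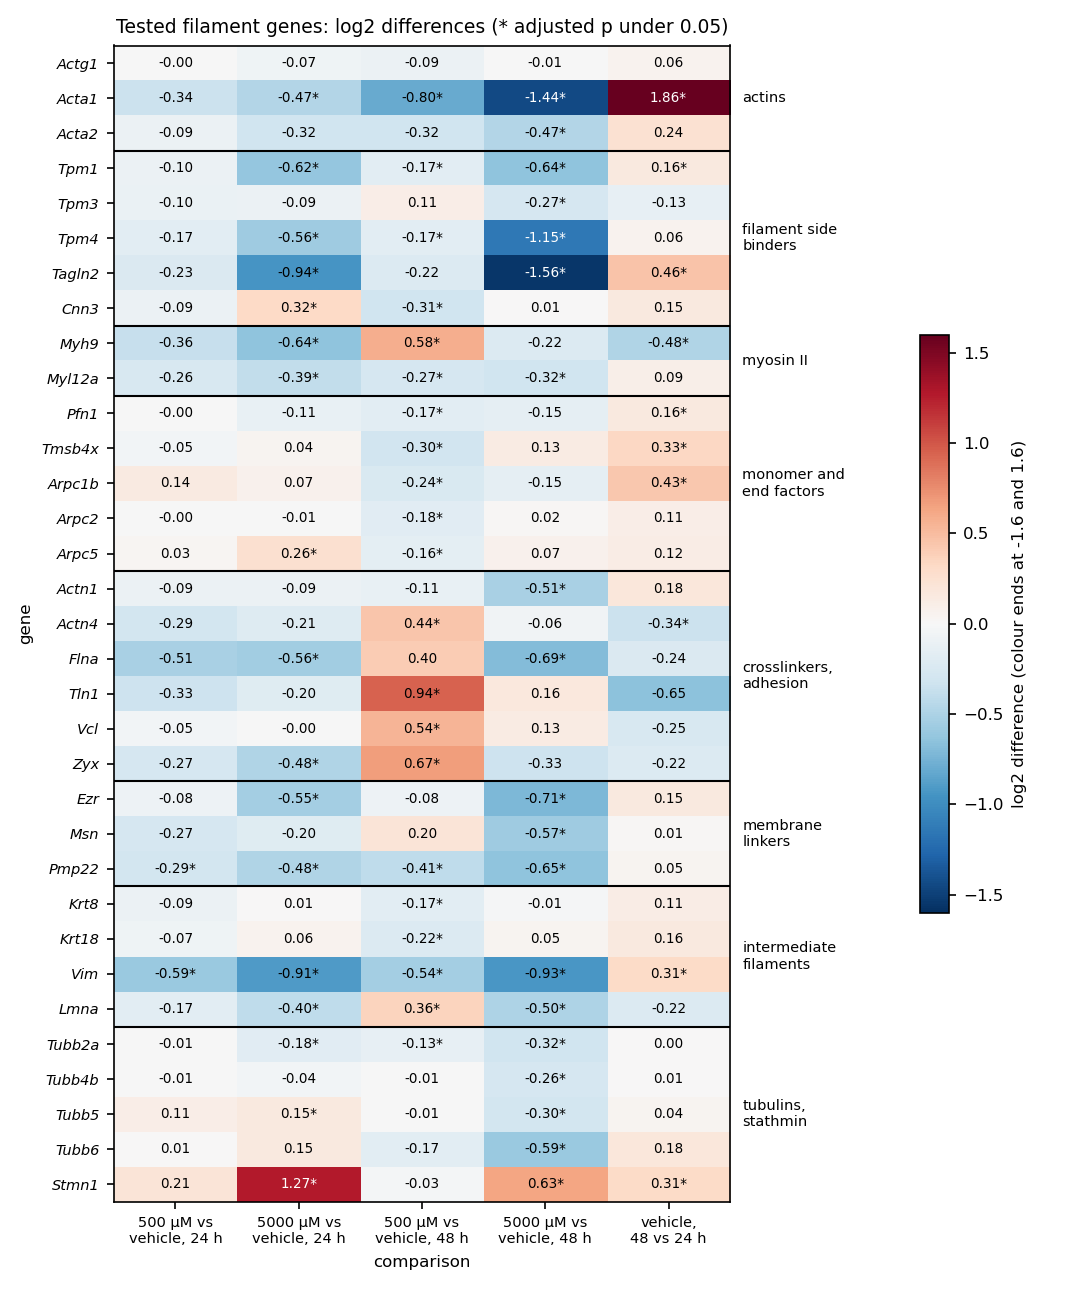
Log2 differences (colour and number) for the 33 tested filament genes, in rows by class, in 5 comparisons: 500 and 5000 µM against vehicle at 24 and 48 h, and vehicle at 48 h against 24 h. Asterisks mark an adjusted p under 0.05, and the values at 5000 µM run from -1.56 for Tagln2 at 48 h to 1.27 for Stmn1 at 24 h.

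At 5000 µM Tpm1, Tpm4 and Tagln2, which bind along actin filaments, the membrane genes Ezr and Pmp22, and vimentin fell at both times, and the cytoplasmic actin Actg1 and keratins 8 and 18 were not called at either. Krt8, Actg1 and Krt18 ranked 25, 65 and 81 in brightness of 14217 genes, and whether signals that high are compressed was not tested. At 24 h 13 of the 33 tested genes fell and 4 rose, where 38.1% of all genes were called (18.6% higher, 19.6% lower). At 48 h 18 fell and 1 rose, where 32.6% were called (14.6% higher, 18% lower). The medians were -0.18 and -0.30 over the 33 genes and -0.00 and -0.01 over all genes. The 2 times have separate treated and vehicle wells, and 11 genes fell at both, which is 84.6% of those that fell at 24 h and 61.1% of those at 48 h. Over all genes, 797 fell at both, 47.8% of the 24 h falls and 51.9% of the 48 h falls. The 11 were Acta1, Tpm1, Tpm4, Tagln2, Myl12a, Flna, Ezr, Pmp22, Vim, Lmna and Tubb2a, and the gene that rose at both times was Stmn1. Several 24 h falls were not firm. Other probe sets gave 0.05 for Tpm4 and 0.10 for Pmp22. Calls were lost under 9 of 20 alternatives for Acta1, under 11 of 20 for Flna, and with the beta-actin ratio for Lmna. The mean of all Tpm1 probe sets was not called at either time. The share over all genes was not screened in this way.

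Among the actins, Acta1 read 1275, 1623, 1899, 2083 and 2217 units at 5000 µM and 48 h, against 3776, 4863, 4936, 5014 and 5864 units in vehicle. No arrays overlapped, and the difference was -1.44 ± 0.18 (adjusted p = 1.68e-07), 36.9% of the vehicle level. The 5000 µM wells at 48 h overlapped the 24 h vehicle wells. At 24 h the arrays overlapped, with 744, 903, 929, 941 and 1375 units at 5000 µM and 975, 1176, 1280, 1532 and 1863 units in vehicle, and the difference of -0.47 ± 0.18 (adjusted p = 0.0375) was lost under 9 of 20 alternatives. The difference between the effects at 48 h and at 24 h was -0.97 ± 0.26 (adjusted p = 0.0087), where 16.4% of all genes had such a difference. Acta2, smooth muscle alpha-actin, had 705, 721, 775, 798 and 838 units at 5000 µM and 48 h, all below the 964, 1007, 1074, 1126 and 1149 units in vehicle (-0.47 ± 0.14, adjusted p = 0.0107), and its -0.32 ± 0.14 at 24 h did not pass. Actg1, cytoplasmic gamma-actin, read 44987, 51474, 51608, 55452 and 57805 units at 5000 µM and 48 h and 49498, 49978, 52888, 54398 and 55514 units in vehicle. Its differences were -0.01 ± 0.07 at 48 h and -0.07 ± 0.07 at 24 h.

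Among the proteins that bind along filaments, Tagln2 had the lowest difference of the 33 tested genes at both times. Tagln2 read 2625, 2709, 3127, 3373 and 3422 units at 5000 µM and 48 h, against 7270, 8649, 9078, 9832 and 10067 units in vehicle. At 24 h it read 2893, 3458, 3469, 3532 and 3595 units at 5000 µM and 5274, 6549, 6812, 6945 and 7035 units in vehicle. The arrays were apart at both times, with differences of -1.56 ± 0.11 (adjusted p = 2.97e-13; 34.0% of vehicle) and -0.94 ± 0.11 (adjusted p = 1.51e-08), and the 48 h effect minus the 24 h effect was -0.62 ± 0.15 (adjusted p = 0.00414). Tpm4, a tropomyosin of non-muscle cells, read 4877, 5192, 5272, 5692 and 5911 units at 5000 µM and 48 h and 10627, 11517, 11851, 12297 and 13414 in vehicle. Its differences were -1.15 ± 0.07 at 48 h and -0.56 ± 0.07 at 24 h. A second Tpm4 probe set read -0.99 at 48 h but 0.05 at 24 h, so the 24 h fall holds for 1 probe set only.

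Tpm1 read 12808, 13882, 13898, 14278 and 15027 units at 5000 µM and 48 h, against 19657, 21528, 22035, 22741 and 23066 units in vehicle. The 24 h wells stood at 11953, 12364, 12660, 12682 and 13598 units at 5000 µM and at 18753, 19132, 19603, 19786 and 20031 in vehicle. No arrays overlapped at either time, and the differences were -0.64 ± 0.05 at 48 h and -0.62 ± 0.05 at 24 h. Its 3 other bright probe sets gave -0.77, -0.68 and -0.16 at 48 h, the last not called (adjusted p = 0.443), and -0.26, -0.53 and -0.36 at 24 h, the first not called (adjusted p = 0.239). The mean of all Tpm1 probe sets gave -0.31 (adjusted p = 0.0983) and -0.22 (adjusted p = 0.237), so the size and the call depend on the probe set. Calponin 3 (Cnn3), an actin-binding calponin, went the other way at 24 h, with 10358, 12915, 13126, 13187 and 13556 units at 5000 µM and 8142, 9646, 10417, 10887 and 11762 units in vehicle. That rise of 0.32 ± 0.09 (adjusted p = 0.00556) was not called with either ratio as a covariate, and at 48 h the difference was 0.01 ± 0.09. Tpm3 is not described as changed, since its probe sets gave differences of opposite sign.

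**Figure D3:**
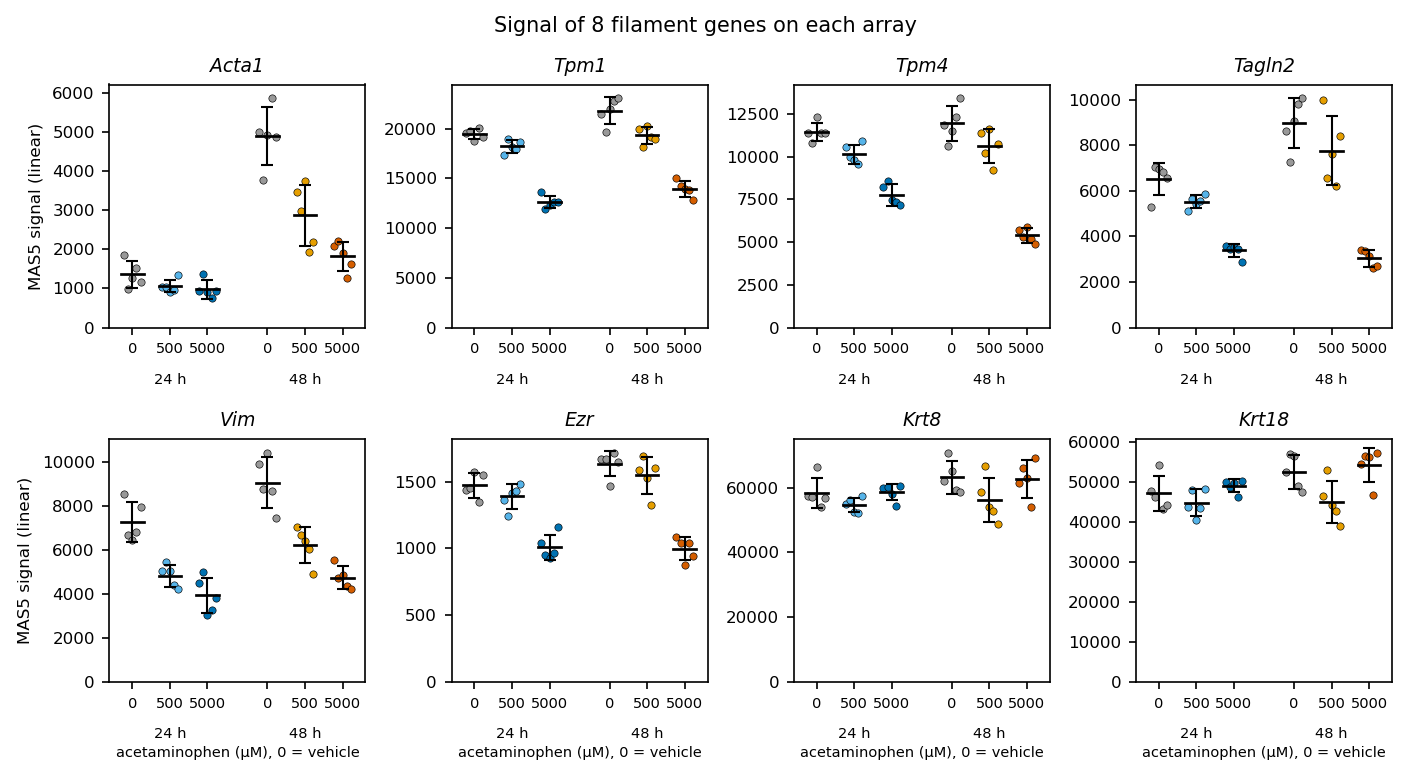
MAS5 signal on each of the 30 arrays (points) with group means and SD (bars, n = 5) for Acta1, Tpm1, Tpm4, Tagln2, Vim, Ezr, Krt8 and Krt18, at vehicle, 500 and 5000 µM, 24 h on the left and 48 h on the right of each panel. Linear axes start at 0. At 5000 µM Tpm1, Tagln2, Vim and Ezr lie below every vehicle array of the same time, and the keratins overlap vehicle.

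Both tested myosin II chains fell at 24 h. Myh9 read 7766, 8125, 8201, 9091 and 12049 units at 5000 µM and 12814, 13734, 14054, 14289 and 14965 units in vehicle (-0.64 ± 0.11, adjusted p = 1.93e-05). The light chain Myl12a read 29986, 30512, 32527, 33559 and 37561 units at 5000 µM and 38257, 38706, 44782, 45124 and 48540 in vehicle (-0.39 ± 0.09). Neither overlapped. At 48 h Myl12a fell again (-0.32 ± 0.09, adjusted p = 0.00518), and Myh9 had -0.22 ± 0.11 (adjusted p = 0.128). Of the 5 tested monomer and filament-end factors, 1 was called at 24 h and 0 at 48 h, where limma gave 0 higher and 1 lower at an unadjusted p under 0.05. The one was Arpc5, an Arp2/3 subunit, with 22456, 24430, 25504, 26851 and 27150 units at 5000 µM and 19127, 21217, 21431, 21617 and 22385 units in vehicle (0.26 ± 0.06, adjusted p = 0.00091), apart by a narrow margin.

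Crosslinker and adhesion genes gave 2 falls of 6 tested at each time. Alpha-actinin 1 (Actn1), which bundles actin at adhesions, read 1573, 1594, 1636, 1696 and 1719 units at 5000 µM and 48 h, against 2235, 2247, 2319, 2409 and 2535 in vehicle (-0.51 ± 0.08, adjusted p = 3.1e-06), and -0.09 ± 0.08 at 24 h. A second, dimmer Actn1 probe set gave -0.22 at 48 h and was not called. Filamin A (Flna) read 693, 826, 849, 851 and 1096 units at 5000 µM and 48 h and 1247, 1259, 1432, 1436 and 1537 in vehicle (-0.69 ± 0.22, adjusted p = 0.0153). Those arrays were apart. Its 24 h fall (-0.56 ± 0.22, adjusted p = 0.0445) was lost under 11 of 20 alternatives, and that of zyxin (Zyx, -0.48 ± 0.15) with either ratio as a covariate.

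Ezrin (Ezr), which links actin to the membrane of microvilli, read 877, 944, 1039, 1044 and 1088 units at 5000 µM and 48 h, against 1471, 1648, 1669, 1670 and 1718 units in vehicle. At 24 h the arrays read 927, 953, 963, 1040 and 1157 units at 5000 µM and 1349, 1436, 1454, 1552 and 1572 units in vehicle. The groups were apart at both times, with differences of -0.71 ± 0.08 (adjusted p = 3.19e-08) and -0.55 ± 0.08 (adjusted p = 2.66e-06). Pmp22, a tetraspan membrane protein, had 1971, 1988, 2057, 2116 and 2451 units at 5000 µM and 48 h and 3047, 3154, 3329, 3492 and 3532 in vehicle. It fell by 0.65 ± 0.07 at 48 h and by 0.48 ± 0.07 at 24 h on the log2 scale. A dimmer Pmp22 probe set gave -0.53 at 48 h and 0.10 at 24 h. Moesin (Msn), a relative of ezrin, had -0.57 ± 0.19 at 48 h (adjusted p = 0.0228) with overlapping arrays, and the call was lost without any of 4 single arrays.

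Vimentin and lamin A/C fell at both times, and neither keratin was called. Vimentin read 4209, 4371, 4745, 4845 and 5535 units at 5000 µM and 48 h, against 7451, 8688, 8764, 9927 and 10423 units in vehicle. At 24 h it read 3066, 3278, 3835, 4481 and 5011 units at 5000 µM and 6441, 6697, 6818, 7949 and 8536 units in vehicle. The arrays were apart at both times and the differences were -0.93 ± 0.12 (adjusted p = 1.51e-07) at 48 h and -0.91 ± 0.12 (adjusted p = 1.99e-07) at 24 h. Lamin A/C (Lmna), of the nuclear lamina, read 2218, 2250, 2260, 2301 and 2417 units at 5000 µM and 48 h and 2852, 2951, 3282, 3499 and 3636 in vehicle (-0.50 ± 0.10, adjusted p = 0.000198), and -0.40 ± 0.10 at 24 h.

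Keratin 8 (Krt8) read 53874, 61465, 62818, 65919 and 69161 units at 5000 µM and 48 h and 58731, 59111, 61948, 65218 and 70777 in vehicle, a difference of -0.01 ± 0.07. Keratin 18 (Krt18), its partner in the filament, read 46920, 54690, 56403, 56539 and 57454 units at 5000 µM and 47702, 49016, 52602, 56598 and 57123 in vehicle, 0.05 ± 0.07. The groups overlapped, and at 24 h the differences were 0.01 ± 0.07 and 0.06 ± 0.07.

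At 5000 µM the effect on stathmin and on Tubb4b, Tubb5 and Tubb6, 3 of the 4 tested beta-tubulins, differed between the times. Stmn1, which binds tubulin dimers and destabilises microtubules, read 1484, 1552, 1629, 1748 and 1941 units at 5000 µM and 24 h, against 618, 657, 695, 701 and 793 units in vehicle. At 48 h it read 1237, 1288, 1327, 1340 and 1443 units at 5000 µM and 639, 851, 925, 941 and 961 units in vehicle. It rose at both times, by 1.27 ± 0.11 (adjusted p = 1.51e-10; 241% of vehicle) and by 0.63 ± 0.11 (adjusted p = 4.54e-05), and the 48 h effect minus the 24 h effect was -0.64 ± 0.16 (adjusted p = 0.00597).

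Tubb6, a beta-tubulin isotype, read 5846, 5983, 6218, 7584 and 8288 units at 5000 µM and 48 h, against 8573, 10384, 10458, 10553 and 10889 units in vehicle. At 24 h it read 8900, 8934, 10248, 10728 and 10879 units at 5000 µM and 8031, 8627, 8909, 9322 and 9798 units in vehicle. It was apart and lower at 48 h (-0.59 ± 0.09, adjusted p = 5.77e-06) and overlapped at 24 h (0.15 ± 0.09), and the effects differed by -0.74 ± 0.13 (adjusted p = 0.000151). Its only other probe set had a geometric mean of 72.4 units and was not used beside it. Tubb5, the widely expressed isotype, read 7707, 7918, 8000, 8014 and 8213 units at 5000 µM and 48 h and 8627, 9259, 9516, 10397 and 11380 in vehicle (-0.30 ± 0.06). Its 24 h difference was 0.15 ± 0.06 (adjusted p = 0.0423, lost under 12 of 21 alternatives), and the effects differed by -0.45 ± 0.08 (adjusted p = 0.000366). A second Tubb5 probe set gave -0.37 at 48 h and 0.22 at 24 h.

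Tubb4b read 24448, 25732, 26465, 26683 and 27711 units at 5000 µM and 48 h and 30578, 30809, 30950, 31414 and 33503 in vehicle (-0.26 ± 0.05), and its effects differed by -0.22 ± 0.07 (adjusted p = 0.0296, lost under 11 of 30 alternatives). Tubb2a was lower at both times, with 29113, 30089, 30686, 30868 and 30904 units at 5000 µM and 48 h against 36956, 37074, 37089, 38704 and 39366 units in vehicle (-0.32 ± 0.04; -0.18 ± 0.04 at 24 h). Its effects did not pass the test for a difference (-0.14 ± 0.06, adjusted p = 0.123). All 4 tested beta-tubulins were apart from vehicle at 48 h, where 13.6% of all genes lay wholly below. The alpha-tubulins Tuba1a, Tuba1b and Tuba1c share a probe set, which gave -0.35 at 48 h (adjusted p = 0.00119 over all probe sets) and 0.16 at 24 h (adjusted p = 0.163).

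**Figure D4:**
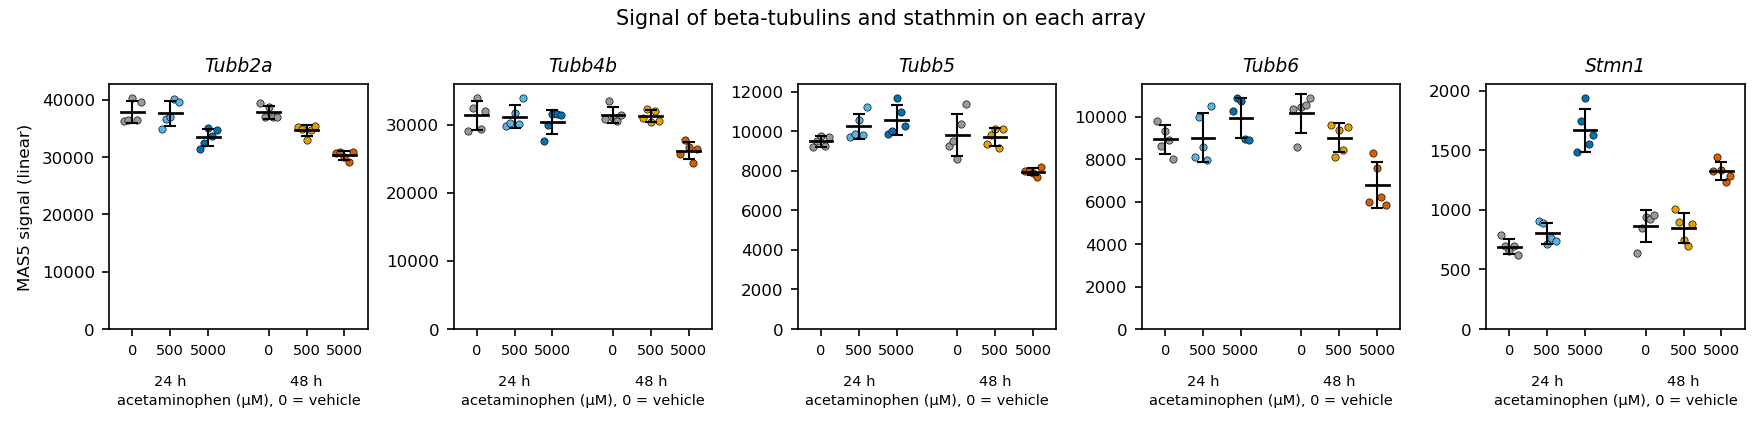
MAS5 signal on each array (points) with group means and SD (bars, n = 5) for Tubb2a, Tubb4b, Tubb5, Tubb6 and Stmn1 at vehicle, 500 and 5000 µM, 24 h on the left and 48 h on the right of each panel, on linear axes from 0. The 4 tubulins lie below vehicle at 5000 µM and 48 h, where stathmin lies above it at both times.

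In all, 8 of the 33 genes had effects of 5000 µM that differed between the times, each more negative at 48 h: Acta1, Tagln2, Tpm4, Actn1, Tubb4b, Tubb5, Tubb6 and Stmn1. Over all genes 7.74% differed upwards and 8.66% downwards. Where the beta-actin ratio was a covariate, 7 of the 33 were called, without Tubb4b. Under that covariate 3 of the 33 rose and 10 fell at 5000 µM and 24 h, and 1 rose and 21 fell at 48 h, where 30.5% and 35.5% of all genes were called. At 24 h Acta1, Flna, Zyx and Lmna were no longer among the falls and Acta2 was.

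At 500 µM and 24 h vimentin and Pmp22 fell and 0 of the 33 rose, where 2.86% of all genes were called (1.65% higher, 1.21% lower). At an unadjusted p under 0.05 in limma, 0 of the 33 were higher and 8 lower. Vim read 4248, 4400, 5038, 5050 and 5455 units at 500 µM, against 6441, 6697, 6818, 7949 and 8536 units in vehicle, with no overlap (-0.59 ± 0.12, adjusted p = 0.00289). Pmp22 had 2459, 2501, 2531, 2783 and 2840 units at 500 µM and 3087, 3093, 3158, 3232 and 3432 in vehicle (-0.29 ± 0.07, adjusted p = 0.0106), but -0.02 on its dimmer probe set. Acta1 had -0.34 ± 0.18, Actg1 -0.00 ± 0.07, Krt8 -0.09 ± 0.07 and Krt18 -0.07 ± 0.07, none of them called.

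Across doses vimentin went down in steps at 24 h. The means were 7288 ± 906 in vehicle, 4838 ± 501 at 500 µM and 3934 ± 815 units at 5000 µM (SD, n = 5 each), and the difference of 5000 µM from 500 µM was -0.32 ± 0.12 (adjusted p = 0.0363) with overlapping arrays, a call lost under 10 of 20 alternatives. At 48 h the means were 9051 ± 1164, 6214 ± 814 and 4741 ± 515 units. The difference between the doses was -0.39 ± 0.12 (adjusted p = 0.00698), a call lost under 2 of 20 alternatives. Over the 20 it ran from -0.469 to -0.0912, with an adjusted p up to 0.73. The beta-actin 3′/5′ ratio at 48 h was 1.214 ± 0.051 at 5000 µM and 1.86 ± 0.119 at 500 µM, without overlap. Differences between the doses at 48 h, for vimentin and the other genes, are thus not separated from the ratio. The Tagln2 difference of 5000 µM from 500 µM was -0.71 ± 0.11 at 24 h and -1.34 ± 0.11 at 48 h, against -0.23 ± 0.11 and -0.22 ± 0.11 for 500 µM against vehicle, which did not pass. Between the doses 3 of the 33 were higher and 7 lower at 24 h (all genes: 31.2% called, 16.8% higher and 14.3% lower), and 6 were higher and 21 lower at 48 h (all genes: 47.6% called, 19.4% higher and 28.2% lower). The 48 h count was 14 under either covariate.

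At 500 µM and 48 h, 6 of the 33 genes rose and 15 fell, where 42.6% of the genes tested passed (24.0% upwards, 18.6% downwards), and these are the wells whose 3′/5′ ratio stood apart. With the beta-actin ratio as a covariate 0 rose and 2 fell, Vim (-0.78, adjusted p = 0.00316) and Pmp22 (-0.43, adjusted p = 0.00567), where 3.97% of all genes were called. At an unadjusted p under 0.05 in that limma fit 0 were higher and 7 lower. With the GAPDH ratio 5 fell (Acta1, Tpm1, Pmp22, Krt18 and Vim) and 0 rose, with 1 and 9 at an unadjusted p under 0.05. The ratio and the dose cannot be told apart for any of these genes, because no well of one group had a ratio within the range of the other. The covariate's slope rests on the spread of wells within groups. The calls that Vim and Pmp22 kept therefore do not separate dose from ratio.

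Vimentin read 4904, 6058, 6410, 6678 and 7023 units at 500 µM and 48 h, against 7451, 8688, 8764, 9927 and 10423 units in vehicle. Pmp22 read 2419, 2430, 2436, 2579 and 2583 units at 500 µM and 3047, 3154, 3329, 3492 and 3532 in vehicle. Neither overlapped, and the differences were -0.54 ± 0.12 (adjusted p = 0.000479) and -0.41 ± 0.07 (adjusted p = 1.75e-05). Both Pmp22 probe sets were lower here, the dimmer by -0.74. Acta1 had 1940, 2190, 2980, 3471 and 3759 units at 500 µM and 3776, 4863, 4936, 5014 and 5864 in vehicle, apart by a narrow margin (-0.80 ± 0.18, adjusted p = 0.000814), and -0.74 (adjusted p = 0.104) with the beta-actin ratio.

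Of the 6 genes that rose at 500 µM and 48 h, 3 encode focal adhesion proteins, talin, zyxin and vinculin. Talin 1 (Tln1), which activates integrins, read 1394, 1416, 1581, 1746 and 2045 units at 500 µM and 278, 984, 996, 1096 and 1423 units in vehicle (0.94 ± 0.26, adjusted p = 0.00467). One vehicle array held the low value, and the difference was 0.54 (adjusted p = 0.0167) without it. Zyxin read 1648, 1956, 2051, 2297 and 3635 units at 500 µM and 1299, 1321, 1415, 1456 and 1545 in vehicle (0.67 ± 0.15), with no overlap. Vinculin (Vcl), which binds talin and actin, read 6454, 6487, 6735, 6759 and 7237 units at 500 µM and 4512, 4515, 4524, 4552 and 5066 in vehicle (0.54 ± 0.11), also apart. The other genes were Actn4 (0.44 ± 0.10), Myh9 (0.58 ± 0.11) and Lmna (0.36 ± 0.10). With the beta-actin ratio as a covariate the values were 0.69 for Tln1, 0.30 for Zyx, 0.12 for Vcl, 0.14 for Actn4, 0.15 for Myh9 and 0.14 for Lmna, none of them called. Vcl's 2 other bright probe sets gave 0.04 and 0.14 without the covariate.

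All 5 tested monomer and filament-end factors fell at 500 µM and 48 h. Tmsb4x, the main actin-sequestering peptide, had 37935, 40914, 42007, 44108 and 44431 units at 500 µM, below all of the 46953, 50669, 52444, 53142 and 55334 units in vehicle (-0.30 ± 0.07, adjusted p = 0.000902). Pfn1, Arpc1b, Arpc2 and Arpc5 had -0.16 to -0.24. Keratin 8 read 48856, 52875, 54111, 58487 and 66801 units at 500 µM and 58731, 59111, 61948, 65218 and 70777 in vehicle (-0.17 ± 0.07, adjusted p = 0.0473), a call lost under 13 of 20 alternatives. Keratin 18 read 39072, 42720, 44293, 46553 and 52991 units at 500 µM and 47702, 49016, 52602, 56598 and 57123 in vehicle (-0.22 ± 0.07, adjusted p = 0.0129). Both keratins overlapped. Of the 5 end factors, 0 were called with either covariate (limma; at an unadjusted p under 0.05, 0 with the beta-actin ratio and 2 lower with the GAPDH ratio).

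The effect of 500 µM differed between 48 h and 24 h for 10 of the 33 genes, where 36.6% of all genes differed (22.1% upwards, 14.5% downwards). The split was 7 more positive and 3 more negative, against 7 and 10 with arrays centred on their medians and 8 and 1 with quantile normalization. Tln1 (1.27 ± 0.37), Myh9 (0.94 ± 0.16), Zyx (0.94 ± 0.21), Flna (0.91 ± 0.31), Actn4 (0.73 ± 0.14), Vcl (0.59 ± 0.15) and Lmna (0.53 ± 0.14) were more positive at 48 h, and Arpc1b (-0.38 ± 0.11), Tmsb4x (-0.26 ± 0.10) and Arpc2 (-0.18 ± 0.07) more negative. The Arpc2 and Tmsb4x calls were lost under 19 of 31 and 13 of 30 alternatives. With the beta-actin ratio as a covariate limma called 0 of the 33, with 2 higher and 1 lower at an unadjusted p under 0.05, and 0.0352% of all genes. With the GAPDH ratio it called 0 of the 33 and 0 of all 8531, with 1 higher and 1 lower of the 33 at an unadjusted p under 0.05.

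The dim and shared genes were read outside the main test. Their values are given without the 3′/5′ ratios as a covariate. For them too, ratio cannot be told apart from dose at 500 µM and 48 h, nor from time in vehicle wells. In a fit of all 14217 named genes, Pdlim7, a PDZ and LIM domain protein of actin filaments, read 564, 610, 668, 695 and 728 units at 5000 µM and 24 h and 177, 250, 266, 449 and 453 in vehicle (1.12 ± 0.29, adjusted p = 0.00456). At 48 h it read 385, 399, 419, 536 and 560 units at 5000 µM and 70, 108, 121, 197 and 301 in vehicle (1.69 ± 0.29), and at 500 µM 315, 328, 403, 449 and 564 units (1.52 ± 0.29). Its arrays were apart in all 3 comparisons. In vehicle it was lower at 48 h than at 24 h (-1.09 ± 0.29, adjusted p = 0.00852). These Pdlim7 values are from the brighter of its 2 probe sets. Cotl1, an actin-binding protein of the cofilin fold, was called at 5000 µM and 24 h (1.66 ± 0.56, adjusted p = 0.0301) at a geometric mean of only 33.1 units. Tpm2, Tagln, Myl9, Capg, Cd44, Krt19 and Tubb2b were not called in any comparison with vehicle or over time. Probe sets shared by Actb and the gamma-actin genes gave -0.01 and -0.03 at 5000 µM and 48 h, and 1 of the pair was lower at 500 µM and 48 h (-0.19, adjusted p = 0.0431). Of the others, the Tmsb10 probe set was higher in vehicle at 48 h than at 24 h (0.48, adjusted p = 2.96e-05), the Myl6 probe set was lower at 500 µM and 48 h (-0.21, adjusted p = 0.0312), and that of Cfl1 was not called.

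Other gene lists were counted in the same fit and are set beside the share of all genes called, which at 5000 µM was 18.6% higher and 19.6% lower at 24 h and 14.6% and 18% at 48 h. Of 33 other tested genes of actin assembly and contraction, 4 rose and 7 fell at 5000 µM and 24 h (12.1% and 21.2%), and 5 rose and 6 fell at 48 h (15.2% and 18.2%), close to those shares. Pfn2, a second profilin, was higher at both times (0.75 ± 0.09 and 0.85 ± 0.09), and Mylk, myosin light chain kinase, was lower at 24 h (-1.003 ± 0.09). Of 16 other adhesion genes, 0 rose and 7 fell (43.8%) at 5000 µM and 24 h (limma; 1 and 9 at an unadjusted p under 0.05), 1 rose and 2 fell (12.5%) at 48 h, and E-cadherin (Cdh1) was lower at both (-0.83 ± 0.08 and -0.34 ± 0.08). At 500 µM and 48 h 12 of these 16 rose (75%, against 24.0% of all genes) and 1 fell, and in vehicle 10 fell over time (62.5%, against 19%), whereas with the beta-actin ratio 0 passed at 500 µM and 48 h in limma (3 higher and 0 lower at an unadjusted p under 0.05). The ratios of vehicle wells at 48 h and 24 h were also apart (-0.532). Ratio and time therefore cannot be told apart for the 10 falls. Of 10 tested genes of the serum response factor system, 2 rose and 2 fell (20% each) at 5000 µM and 24 h and 1 rose and 3 fell (10% and 30%) at 48 h. Srf itself had 0.03 ± 0.08 and -0.19 ± 0.08, neither called.

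Of 15 other tubulin and microtubule genes, 5 rose and 3 fell (33.3% and 20%, against 18.6% and 19.6% of all genes) at 5000 µM and 24 h, among them the tubulin-folding cofactor Tbcb (0.58 ± 0.07), and 1 rose and 3 fell (6.67% and 20%, against 14.6% and 18%) at 48 h, with Tubb3 at -0.49 ± 0.15. Both tested other intermediate filament genes, lamin B1 (Lmnb1) and desmoplakin (Dsp), fell at both times, by 0.42 ± 0.12 and 0.30 ± 0.07 at 24 h and by 0.45 ± 0.12 and 0.27 ± 0.07 at 48 h on the log2 scale. Of 27 hepatocyte identity genes 1 rose and 8 fell at 5000 µM and 24 h (3.7% and 29.6%, against 18.6% and 19.6% of all genes), and 2 rose and 8 fell at 48 h (7.41% and 29.6%, against 14.6% and 18%). Cyp7a1, whose product limits the rate at which bile acids are made, had -1.99 ± 0.19 and -1.28 ± 0.19. Cyp2e1, which oxidises acetaminophen, rose at both times (0.79 ± 0.11 and 0.82 ± 0.11). Falls in these genes and in vimentin, tropomyosins and transgelin 2 were measured in the same wells at 5000 µM. In vehicle wells over time hepatocyte identity genes fell and Acta1, Tagln2 and Vim rose. With either 3′/5′ ratio as a covariate Acta1 and Vim were still called over time and Tagln2 was not. The calls kept do not separate time from ratio, because both ratios were apart between vehicle wells at 48 h and 24 h. The Vim rise without a covariate was lost when single arrays were left out.

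Markers of other cells in those wells were as follows. Over 10 Kupffer cell and leukocyte markers the summed signal was 20100 to 23040 units at 5000 µM and 24 h, against 23270 to 30980 in vehicle, and 21020 to 23240 against 24740 to 28540 at 48 h. Cd14 carried most of it and fell at both times (-0.54 ± 0.07 and -0.28 ± 0.07). Over 11 stellate cell and fibroblast markers, whose cells also express Vim, Acta2 and Tagln, the sum was 2117 to 2523 units at 5000 µM against 2153 to 2535 in vehicle at 24 h, and 2167 to 2697 against 1955 to 2971 at 48 h. Over 8 sinusoidal endothelial markers it was 1545 to 1864 against 1561 to 2361 at 24 h and 1346 to 1913 against 1203 to 1864 at 48 h. Over 6 cholangiocyte markers, mostly Epcam, it was 9768 to 11280 against 9529 to 9811 at 24 h and 12120 to 13230 against 13360 to 14560 at 48 h. Epcam rose at 24 h and fell at 48 h. The defining stellate cell markers Pdgfrb, Lrat, Dcn and Lum had medians of 70.92, 38.97, 128.1 and 29.4 units. No detection calls were used, so a low signal does not show that a cell type was absent. The part of any of these cell types, Kupffer cells and leukocytes included, in the vimentin and actin differences was not tested.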

How the data were processed

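Total RNA of 30 wells was hybridised to 1-colour Affymetrix rat arrays with 31099 probe sets. The deposited values are MAS5 signal intensities on a linear scale, computed by the authors per the submitters' processing notes; the sources used here give neither the scaling target nor the MAS5 version. Each array's 2% trimmed mean lay between 1500.55 and 1500.66 units, and values were used as deposited, without further normalization. MAS5 intensities carry no read depth, so the number of arrays limits the precision.

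Probe sets were named by the platform table, with symbols updated through Entrez identifiers for 20758 probe sets: 20826 named 1 gene, 436 several and 9780 none. The brightest probe set stood for a gene. The brightest 60% of genes, those with a geometric mean of at least 469.16 units, were tested. Log2 signals were fitted with limma 3.58.1 in R 4.3.3, with 1 mean per group over all arrays (24 residual degrees of freedom) and an intensity trend, and adjusted by Benjamini-Hochberg over 8531 genes. The script was tested on simulated data. The 3′/5′ ratios were compared by two-sided exact permutation tests. Alternatives were median centring, quantile normalization, the mean of all probe sets, other probe sets, no brightness filter, an offset of 100, only the compared groups, either 3′/5′ ratio as a covariate, no trend, leaving out each array, and, added after seeing the data, sets of arrays by serial number as a block. Promoters are from RefSeq, assembly GRCr8.

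Array values are printed for called genes with the largest absolute change, up to 3 a class and comparison, and for actins, keratins and vimentin. Genes of other lists are named only where called, at most 3 a list and comparison, and Srf, albumin and cell markers were named as checks. Genes and lists were chosen with earlier results of these data known.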

Additional observations from a re-analysis of the deposited data

Results flagged for a closer look

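Of 198 sets of 5 arrays for the 33 tested genes, 14 held an array whose gap to the next value was above Dixon's critical value, where chance gives about 1 in 20. In the 500 µM wells at 48 h, replicate 3 stood apart for Myh9 (19820 units, others 13150 to 14680), Actn4 (13550, others 8691 to 9563) and Tubb2a (32970, others 34770 to 35500). In the 48 h vehicle wells, replicate 2 stood apart for Tln1 (278 units, others 983.5 to 1423), Actn4 (8152, others 6973 to 7203) and Tubb6 (8573, others 10380 to 10890). Replicate 5 of those wells was high for Vcl (5066, others 4511 to 4552) and replicate 3 low for Ezr (1471, others 1648 to 1718). At 5000 µM and 24 h, replicate 5 was high for Actg1 (51940, others 46040 to 47290) and low for Tagln2 (2893, others 3458 to 3595), and replicate 1 was low for Cnn3 (10360, others 12910 to 13560). In the 24 h vehicle wells, replicate 3 was high for Actg1 (60900, others 45850 to 49550) and replicate 1 low for Tagln2 (5274, others 6549 to 7035). At 5000 µM and 48 h, replicate 4 was low for Krt18 (46920, others 54690 to 57450).

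The effect of acetaminophen differed between 48 h and 24 h by limma's interaction term for 10 genes at 500 µM: Myh9 (0.94), Tmsb4x (-0.26), Arpc1b (-0.38), Arpc2 (-0.18), Actn4 (0.73), Flna (0.91), Tln1 (1.27), Vcl (0.59), Zyx (0.94) and Lmna (0.53). At 5000 µM it differed for 8: Acta1 (-0.97), Tpm4 (-0.58), Tagln2 (-0.62), Actn1 (-0.42), Tubb4b (-0.22), Tubb5 (-0.45), Tubb6 (-0.74) and Stmn1 (-0.64).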

How the results depend on the processing

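The labels do not say that wells are paired, but the serial numbers in the titles run in 5 sets of 6, 1 well of each group in a set. Deviations from the group means correlated between wells of the same set at -0.32 to 0.433 over the 7 comparisons of 2 groups, above 0.1 in 20 of 35 pairs. In 17 of the 35 pairs, the well of the tested group correlated best with the reference well of its own set, where chance gives 1 in 5. Wells recur across the 7 comparisons, so these pairs are not independent. The main fit did not take the sets as pairs, since the labels name none, and so leaves out this likeness within sets. With the sets as a replicate block, an alternative chosen after seeing the data, the calls were 3 and 17 at 500 and 5000 µM and 24 h, 21 and 20 at 48 h, 11 and 28 between the doses at 24 and 48 h, 11 in vehicle over time, and 11 and 10 for the 500 and 5000 µM interactions. No call was lost under the block and 8 were gained. Leaving out 1 array gave 2 to 3 calls among the 33 genes at 500 µM and 24 h, 14 to 19 at 5000 µM and 24 h, 17 to 21 at 500 µM and 48 h, 17 to 20 at 5000 µM and 48 h, 8 to 12 and 27 to 28 between the doses at 24 and 48 h, 7 to 10 in vehicle over time, and 7 to 10 for each interaction. With the beta-actin and GAPDH ratios as covariates the calls were 2 and 5 at 500 µM and 48 h, 14 and 14 between the doses at 48 h, 3 and 5 in vehicle over time, and 0 and 0 for the 500 µM interaction (limma; 3 and 2 at an unadjusted p under 0.05 with the beta-actin and GAPDH ratios). Median centring of the arrays gave that interaction 17 calls and moved its median over all genes to -0.0856, against 0.0355 as deposited; between the doses at 48 h that median was 0.0641 against -0.0419. Centring gave the 5000 µM interaction 1 higher and 7 lower, against 0 and 8, and quantile normalization gave 5 higher and 7 lower between the doses at 24 h, against 3 and 7. At 500 µM and 24 h 1 gene was called with the mean of all probe sets and 1 with only the compared groups in the fit. Of values for single genes under the alternatives, 6315 kept direction and side of the threshold, 308 lost and 104 gained a call, and 53 changed sign. The cause of the sign changes was not tested.

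With the beta-actin ratio the sign changed for Arpc1b (0.00216) and Cnn3 (0.0389) at 500 µM and 48 h, Cnn3 (-0.0446) and Vcl (0.0323) between the doses at 48 h, and Vcl at 5000 µM and 24 h (0.28). Other probe sets gave Actn1 0.55 at 500 µM and 48 h and 0.77 for its interaction, Arpc2 0.52 at 5000 µM and 24 h (0.25 as the mean), Tpm4 0.0487 at 5000 µM and 24 h, and Pmp22 0.10 at 5000 µM and 24 h, 0.12 between the doses at 24 h and 0.20 at 48 h. They gave Tpm1 0.11 between the doses at 48 h and -0.0251 and -0.0515 in vehicle over time, Tubb5 -0.28 in vehicle over time and 0.36 for the 500 µM interaction, Tpm4 -0.95 for that interaction (-0.47 as the mean), and Vcl 0.21 and 0.0771 between the doses at 48 h and -0.0564 for that interaction. Quantile normalization gave Tubb4b 0.11 there. The mean with its dim probe set gave Tubb6 -0.67 at 5000 µM and 24 h, 0.0787 at 48 h, 0.45 between the doses at 48 h and 0.75 for the interaction. Tpm3 gave 0.32 (mean), 0.45, 0.63, 0.87, 0.44, 0.57, 0.21 and 0.17 between the doses at 48 h, 0.0526 at 5000 µM and 48 h, -0.61 (mean), -0.85, -0.97, -0.82, -0.93 and -0.42 at 500 µM and 48 h, -0.69 (mean), -1.06, -1.16, -0.98 and -1.20 for the 500 µM interaction, and 0.36 (mean), 0.54, 0.69, 0.55 and 0.68 in vehicle over time. Signals near the 469.16 unit limit, such as Actn1's dimmer probe set and Tln1's lowest array, are the least certain.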
